A study of Mus musculus with 6 samples.

Results

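The stratified squamous epithelium of the mouse stomach was followed through 34 of its genes in RNA of the gastric corpus, with and without dexamethasone. The genes were listed by symbol (keratins, cornified envelope proteins and desmosome proteins), and 33 of the 34 were found among the 19919 named genes of the array, each with 1 probe set. Dsg1a, a desmosomal cadherin, was not measured. All mice were females of the Balb/c strain, wildtype, and between 8 and 12 weeks old. The treated group, of 3 samples, had dexamethasone, a synthetic glucocorticoid, in the drinking water at 50 mg per litre for 3 days, with the solution changed on day 2. The control group, also of 3 samples, had no treatment, and both sets of 3 are labelled as biological replicates. Each sample was read on 1 single-colour Affymetrix array, and the values are the authors' log2 expression values.

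The mouse stomach is lined in its upper part, the forestomach, by a keratinised squamous epithelium, and beyond a ridge by the glandular mucosa of the corpus and antrum. In the squamous epithelium the dividing basal cells carry the transcription factor p63 and the keratins Krt5 and Krt14. Their daughters move up, switch to suprabasal keratins, make the proteins that are later cross-linked into the cornified envelope, and are held together by desmosomes. The keratins Krt6, Krt16 and Krt17 are known from skin as those of activated keratinocytes, as in wounds. The desmosome proteins Dsc2, Dsp, Jup and Perp are not confined to squamous cells and are also made by simple epithelia. The sample labels name the corpus, and they do not record whether any dissection took in forestomach, so the members describe squamous RNA in samples labelled as corpus.

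The promoters of 4 members of differentiation are shown because they hold AP-1 motifs, which recur among the members. RefSeq promoter windows of build GRCm38.p6, from 250 bases before to 50 after each start, were found for 17 of the 34 members in 18 windows, Krt13 having 2 of them. The members without one were Krt15, Trp63, Krt1, Krt4, Krt6a, Krt6b, Krt16, Krt17, Evpl, Ppl, Ly6d, Dsg1a, Dsg3, Dsc2, Dsc3, Perp and Pkp1. The sequences give the 200 bases before the start, 5′ to 3′ on the strand of the gene, with AP-1 motifs (TGANTCA) and TATAAA in capitals. Sprr1a (chr3:92485882-92486081, minus strand) and Sprr1b (chr3:92438780-92438979, minus strand) encode small proline-rich precursors of the cornified envelope, Krtdap (chr7:30787705-30787904, plus strand) a secreted differentiation protein, and Krt13 (chr11:100120578-100120777, minus strand) a suprabasal keratin.
Sprr1a: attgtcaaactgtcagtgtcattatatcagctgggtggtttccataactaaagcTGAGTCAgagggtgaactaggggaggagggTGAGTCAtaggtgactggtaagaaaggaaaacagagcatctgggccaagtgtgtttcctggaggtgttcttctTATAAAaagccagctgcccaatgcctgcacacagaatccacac
Sprr1b: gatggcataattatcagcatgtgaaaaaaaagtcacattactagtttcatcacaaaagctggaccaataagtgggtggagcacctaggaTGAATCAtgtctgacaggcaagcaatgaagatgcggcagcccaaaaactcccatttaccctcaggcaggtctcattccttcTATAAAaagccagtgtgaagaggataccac
Krtdap: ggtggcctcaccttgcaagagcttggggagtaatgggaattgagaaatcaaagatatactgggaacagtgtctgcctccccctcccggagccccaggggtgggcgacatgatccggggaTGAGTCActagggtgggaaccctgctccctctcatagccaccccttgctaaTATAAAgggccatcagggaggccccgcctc
Krt13: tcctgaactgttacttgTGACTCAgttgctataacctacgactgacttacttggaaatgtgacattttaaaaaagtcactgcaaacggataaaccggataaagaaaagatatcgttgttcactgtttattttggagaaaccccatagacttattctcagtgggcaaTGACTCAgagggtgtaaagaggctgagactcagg

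In Sprr1a the AP-1 motifs began 146 and 116 bases before the start and TATAAA 43 bases before it. Sprr1b had 1 AP-1 motif at 111 bases and TATAAA at 30, and Krtdap had them at 81 and 30. Both AP-1 motifs of the printed Krt13 window, at 183 and 34 bases, stood without TATAAA. The other Krt13 window, which is not printed, had 1 AP-1 motif at 196 bases and no TATAAA. Over all member windows AP-1 was found in 8 of 18 (44.4%), against 7.81% of the 32851 windows of the table, and the 7 genes holding it were Krt13, Ivl, Sprr1a, Sprr1b, Krtdap, Sbsn and Serpinb5. Of the members with a window whose arrays split most widely, Krt13 and Krtdap held AP-1, and Krt5, Krt10, Sprr3, Cnfn and Lypd3 did not. TATAAA was found in 6 of 18 (33.3%), in Krt10, Ivl, Sprr1a, Sprr1b, Sprr3 and Krtdap, against 13.6% of all. The core of the p53 family site, the family of p63, was found in 10 of 18 (55.6%) against 70.2% of all. The palindromic glucocorticoid element was in 0 of 18 windows and in 0.475% of all. Both strands were searched over 300 bases, none of the AP-1 and TATAAA motifs in the 4 printed sequences overlap, and these matches are descriptions of letters with no test.

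The treatment was seen in the arrays through Fkbp5, a co-chaperone of the glucocorticoid receptor that glucocorticoids induce in many tissues. Its log2 values were 9.26, 8.62 and 8.88 in control arrays 1, 2 and 3, and 10.26, 10.89 and 11.25 in dexamethasone arrays 1, 2 and 3. The groups did not overlap, and Fkbp5 was 3.68-fold higher under dexamethasone (log2 change 1.88, SE 0.26, limma adjusted p = 0.0151), a call that was lost without control array 2, control array 3 or dexamethasone array 2 (adjusted p up to 0.0957). Over all genes 367 of 19919 passed an adjusted p of 0.05 (1.84%), 159 higher (0.798%) and 208 lower (1.04%). Pearson correlations over genes were 0.986 to 0.993 between control arrays, 0.988 to 0.996 between dexamethasone arrays and 0.983 to 0.990 across the groups.

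The squamous genes differed more between samples of 1 group than most genes did. The mean log2 value over the 33 members was 8.56, 9.61 and 8.70 in control arrays 1, 2 and 3, and 9.75, 9.79 and 8.71 in dexamethasone arrays 1, 2 and 3. Control array 2 and dexamethasone arrays 1 and 2 were thus high, control arrays 1 and 3 and dexamethasone array 3 low, and the groups overlapped. As these are whole tissue samples, fewer squamous cells and less RNA per cell cannot be told apart. The residual SD within groups had a median of 0.513 on the log2 scale over the members, against 0.0954 over all genes, and 24 of 33 members lay above 0.244, a value that 5% of all genes exceeded. It ran from 0.059 for Dsc2 to 1.70 for Krt4, the highest of all 19919 genes.

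The array order was shared by most members. Control array 2 stood above control arrays 1 and 3, and dexamethasone array 3 below dexamethasone arrays 1 and 2, in 26 of 33 members, against 15.4% of all genes. The order was known from earlier work on these data, so these counts carry no test. In 11 members both gaps were at least 1 on the log2 scale, which held for 48 genes in all (0.241%). They were Krt5, Krt1, Krt10, Krt4, Krt13, Sprr3, Cnfn, Ppl, Krtdap, Lypd3 and Dsg3, which take in all 4 suprabasal keratins. Another 10 of the 48 came from a list of further squamous differentiation genes and 27 from outside every list used, as matched by symbol. Among those 27 was Il1f6, the older symbol of Il36a, which that list names but which was not matched. The 7 members without the shared order were Krt6a, Krt6b, Krt16, Evpl, Dsc2, Perp and Sfn.

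**Figure D1:**
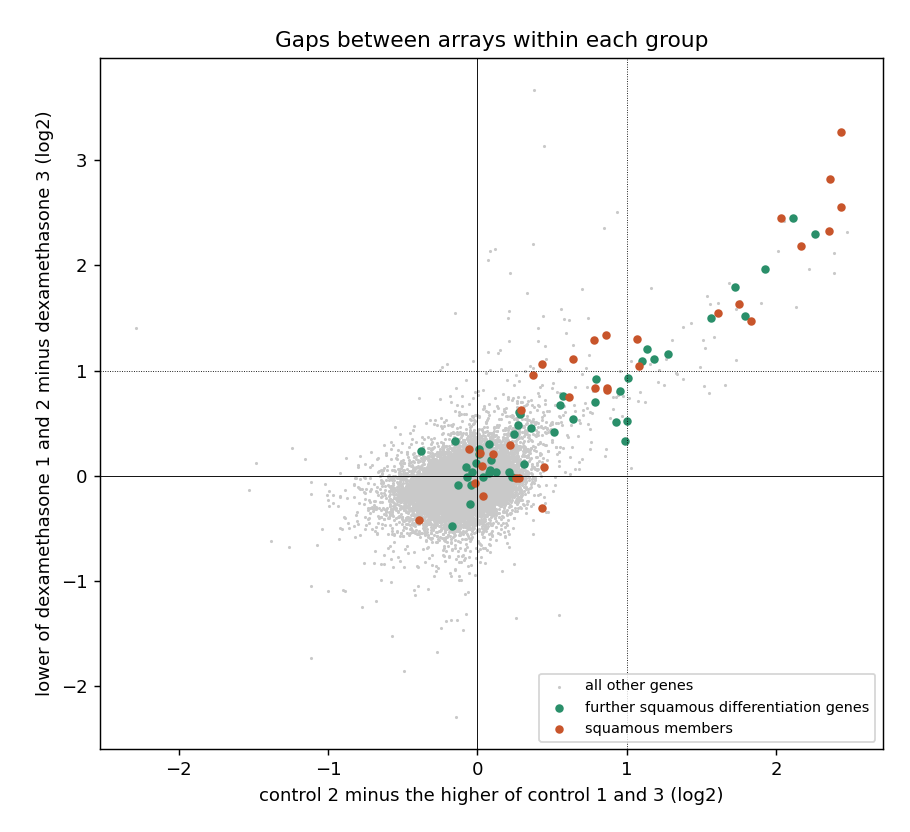
For each of 19919 genes, the horizontal axis gives control array 2 minus the higher of control arrays 1 and 3, and the vertical axis the lower of dexamethasone arrays 1 and 2 minus dexamethasone array 3, both on the log2 scale. Orange points are the 33 squamous members, green points the 47 further squamous differentiation genes and grey points all others, and 11 members lie beyond 1 (dotted lines) on both axes.

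The 4 basal layer genes were all higher on average under dexamethasone, but none passed the test. An unadjusted limma p under 0.05 was found in 2 of 4 (Krt5 and Krt14), against 13.1% of all genes. Krt5, the basal type II keratin, had log2 values of 8.24, 10.38 and 8.54 in the controls and 11.24, 11.39 and 9.77 under dexamethasone. Its highest values were in dexamethasone arrays 1 and 2, and control array 2 lay above dexamethasone array 3, so the groups overlapped. The change was 1.75 (SE 0.61, adjusted p = 0.27), the largest of the members. Krt14, its type I partner, had 8.26, 9.53 and 8.66 in the controls and 10.33, 10.08 and 9.27 under dexamethasone, a change of 1.08 (SE 0.36, adjusted p = 0.246). Here too control array 2 lay above dexamethasone array 3, the only pair of arrays out of order between the groups. Trp63, the gene of the basal regulator p63, had 7.88, 8.67 and 7.84 against 8.99, 8.93 and 8.09, with a change of 0.54 (SE 0.29, adjusted p = 0.502). Krt15, another basal keratin, had 7.65, 8.18 and 7.74 against 8.80, 8.63 and 7.57, with a change of 0.48 (SE 0.31, adjusted p = 0.582). In both genes dexamethasone arrays 1 and 2 were the highest, and dexamethasone array 3 lay below control array 2.

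The suprabasal keratins spanned the widest ranges. Krt1, of the cornifying layers, had log2 values of 10.02, 12.62 and 10.25 in the controls and 12.06, 12.30 and 9.24 under dexamethasone. Control array 2 was the highest array and dexamethasone array 3 the lowest, and the change was 0.24 (SE 0.93, adjusted p = 0.951). Krt10, the type I partner of Krt1, had 9.14, 11.58 and 9.09 against 11.36, 11.27 and 8.71, with the same highest and lowest array, and a change of 0.51 (SE 0.87, adjusted p = 0.868). The other pair, Krt4 and Krt13, is known from internal squamous linings such as the oesophagus. Krt4 had 7.94, 10.55 and 8.12 against 11.14, 11.05 and 7.78, and its change was 1.12 (SE 1.01, adjusted p = 0.714). Krt13 had 9.41, 11.78 and 9.75 against 12.16, 12.29 and 9.71, and its change was 1.07 (SE 0.81, adjusted p = 0.653). For both, dexamethasone arrays 1 and 2 were above every control array and dexamethasone array 3 was among the low controls or below them. No suprabasal keratin passed the test, none had an unadjusted p under 0.05, and in each the range within a group exceeded the mean change.

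Of the 4 activation keratins, 3 had groups that did not overlap (18.3% of all genes) and 1 had the shared array order (15.4%). Krt6a rose under dexamethasone: its log2 values were 7.09, 7.46 and 7.20 in the controls and 7.79, 7.98 and 7.80 under dexamethasone. The groups did not overlap, and the change was 0.61 (SE 0.11, adjusted p = 0.0362), or 1.53-fold. Krt16, a type I partner of the Krt6 keratins, had 7.07, 6.68 and 6.72 against 7.31, 7.21 and 7.62, with its highest value in dexamethasone array 3, the treated array that was lowest in 27 of 33 members. Its groups did not overlap either, and its change was 0.56 (SE 0.14, adjusted p = 0.118). Krt17 had 7.54, 7.76 and 7.44 against 8.23, 8.20 and 7.90, again with no overlap, and a change of 0.53 (SE 0.12, adjusted p = 0.0778). Krt6b had 7.32, 8.04 and 7.76 against 8.02, 8.47 and 8.04, where control array 2 reached into the range of the treated arrays, and a change of 0.46 (SE 0.19, adjusted p = 0.363). All 4 had an unadjusted limma p under 0.05, against 13.1% of all genes, and 1 of 4 passed after adjustment. Krt6a and Krt6b are close paralogs, as are Krt14, Krt16 and Krt17, so their probes may share signal. Krt6a and Krt16 were among the dimmest 40% of genes. In control arrays 2 and 3 Krt16 lay below the lower quartile of the arrays (6.97 to 7.04).

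Of the cornified envelope genes, 0 of 7 passed the test, and no gene had an unadjusted p under 0.05. Sprr3, a small proline-rich envelope precursor, had log2 values of 10.24, 12.74 and 10.57 in the controls and 12.46, 12.73 and 10.27 under dexamethasone, with a change of 0.64 (SE 0.80, adjusted p = 0.807). Cnfn, cornifelin, had 8.89, 10.83 and 9.07 against 10.81, 10.87 and 9.17, with a change of 0.68 (SE 0.60, adjusted p = 0.707). In both genes control array 2 stood level with dexamethasone arrays 1 and 2, and dexamethasone array 3 level with the low controls. Sprr1b had 7.72, 8.36 and 7.56 against 8.97, 8.79 and 7.68, a change of 0.60 (SE 0.35, adjusted p = 0.535). Its near neighbour Sprr1a, whose probes may share signal with it, had 11.33, 11.73 and 11.36 against 11.46, 11.69 and 10.50, a change of -0.25 (SE 0.29, adjusted p = 0.781). Sprr1a was set apart by dexamethasone array 3 alone, which lay below the other 5 arrays. Ppl, periplakin, an envelope scaffold, ran from 8.02 to 9.28 in the controls and from 8.09 to 9.16 under dexamethasone, a change of 0.30. Its partner Evpl, envoplakin, stayed within 8.01 to 8.13 and 7.87 to 8.28, and Ivl, involucrin, within 6.73 to 6.86 and 6.69 to 6.93, with changes of 0.02 and 0.06. These last 2 did not show the wide split of the arrays. Ivl lay below the lower quartile of the arrays (6.97 to 7.04), where a split may not be visible.

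The secreted and surface proteins of differentiation gave 0 of 5 calls and 0 with an unadjusted p under 0.05, and all 5 had the shared array order. Krtdap, keratinocyte differentiation-associated protein, had log2 values of 8.52, 10.88 and 8.51 in the controls and 11.02, 11.07 and 8.70 under dexamethasone, with a change of 0.96 (SE 0.81, adjusted p = 0.69). The 3 high arrays were more than 2 log2 units above the 3 low ones, 1 low array being a treated one. Sbsn, suprabasin, ran from 7.84 to 8.67 and 7.66 to 9.15, Calm4, a calmodulin-like protein of keratinocytes, from 7.04 to 7.96 and 7.28 to 8.37, and Lypd3, a surface protein of the Ly6 family, from 8.32 to 9.58 and 8.22 to 9.79. Their changes were 0.45, 0.44 and 0.37, smaller than the range within each group. Ly6d, another Ly6 surface protein, ran from 9.20 to 10.24 and 9.81 to 10.09, with a change of 0.18. Its lowest array was control array 1, not dexamethasone array 3.

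The desmosome genes fell into a set with the wide array split and a set without it. Dsg3, a desmoglein of the lower squamous layers, had log2 values of 7.14, 8.93 and 7.32 in the controls and 9.52, 9.53 and 7.98 under dexamethasone, with a change of 1.21 (SE 0.56, adjusted p = 0.421). Dsc3, a desmocollin of squamous epithelia, had 6.95, 8.17 and 7.31 against 8.23, 8.36 and 6.89, and Pkp1, plakophilin, had 7.76, 8.78 and 7.92 against 9.09, 9.01 and 8.17. In these 3 the treated arrays 1 and 2 were the highest and groups overlapped, with changes of 0.35 for Dsc3 and 0.60 for Pkp1. Dsc2, the desmocollin made by simple as well as squamous epithelia, fell under dexamethasone: its values were 12.06, 12.18 and 12.20 in the controls and 11.64, 11.59 and 11.65 under dexamethasone. All 3 treated arrays lay below all 3 controls, and the change was -0.52 (SE 0.063, adjusted p = 0.0102), or 1.43-fold lower. Jup, plakoglobin, had 11.44, 11.53 and 11.49 against 11.31, 11.36 and 11.21, which did not overlap, and a change of -0.19 (SE 0.065, adjusted p = 0.246). Dsp, desmoplakin, ran from 11.23 to 11.76 in the controls and 11.21 to 11.51 under dexamethasone, a change of -0.19. Perp, a membrane protein of desmosomes, had 10.50, 10.54 and 10.20 against 10.54, 10.77 and 10.74, groups that met at 10.54 without overlap, and a change of 0.27 (SE 0.11, adjusted p = 0.327).

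The remaining 2 keratinocyte genes gave no call, adjusted or not. Serpinb5, the serpin maspin, had log2 values of 8.61, 8.90 and 8.50 in the controls and 8.73, 8.67 and 8.05 under dexamethasone, a change of -0.19 (SE 0.19, adjusted p = 0.753), with dexamethasone array 3 lowest. Sfn, the 14-3-3 protein sigma, had 7.38, 8.05 and 7.61 against 7.72, 8.32 and 8.02, a change of 0.34 (SE 0.20, adjusted p = 0.535), with control array 1 lowest.

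**Figure D2:**
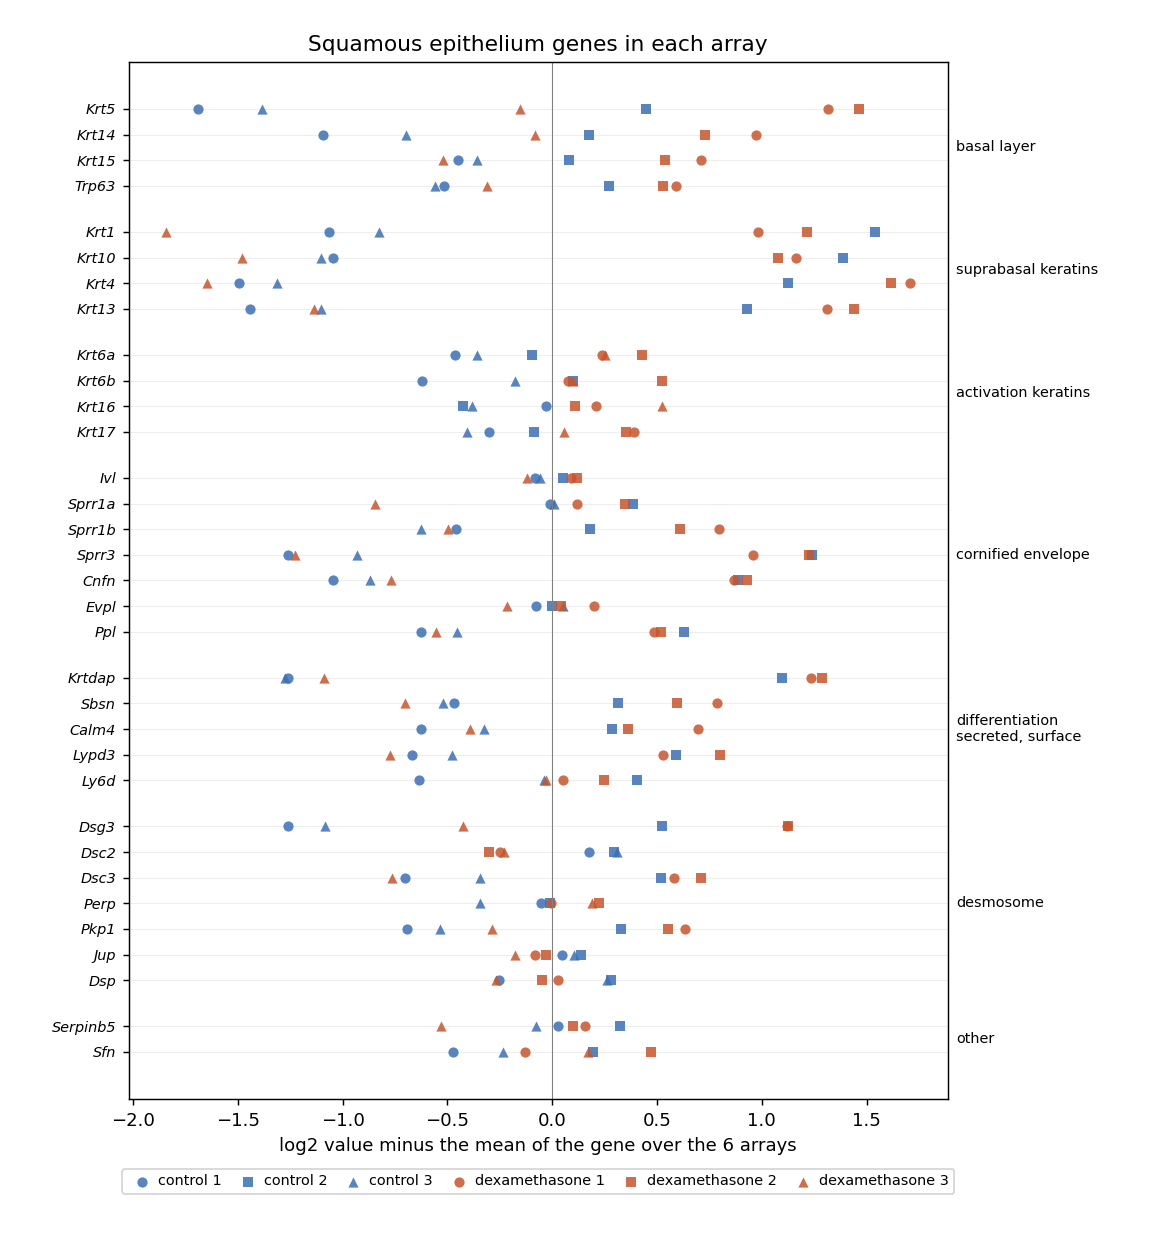
Log2 value of each of the 33 squamous genes in each of the 6 arrays, minus the mean of that gene over the arrays (horizontal axis), with genes grouped by role on the vertical axis, blue for control and orange for dexamethasone. Circles, squares and triangles are arrays 1, 2 and 3 of a group, and Krt1 spreads from 9.24 to 12.62 while Dsc2 stays within 11.59 and 12.20.

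Counted together, 2 of 33 members passed the test (1.84% of all genes did). Krt6a was the 1 member that rose (0.798% of all genes) and Dsc2 the 1 that fell (1.04%). A further 7 members had an unadjusted p under 0.05, for a total of 9, with 7 higher and 2 lower, against 13.1% of all genes (5.97% higher and 7.14% lower). The change was positive in 28 members and negative in 5, against 50.9% positive over all genes. Its median was 0.46 on the log2 scale against 0.0023 over all genes. As 26 members shared 1 array order, these signs are not 33 separate results. The array mean over the members differed by 0.457 between the groups, less than its pooled within-group SD of 0.593. The groups did not overlap in 6 members (18.3% of all genes), 4 of them higher (Krt6a, Krt16, Krt17 and Perp) and 2 lower (Dsc2 and Jup), a share near the background. Neither call held in every fit that left out 1 array: Krt6a had an adjusted p of 0.021 to 0.189 and lost the call without control array 1, control array 3, dexamethasone array 1 or dexamethasone array 2. Dsc2 had 0.010 to 0.074 and lost it without control array 3, dexamethasone array 1 or dexamethasone array 2. The count of members called was 0 in each limma fit without control array 3, dexamethasone array 1 or dexamethasone array 2. In these fits, in that order, 4, 7 and 5 members had an unadjusted p under 0.05. The share of all genes at that level was not taken there, so these counts stand without a background. Without dexamethasone array 3 the count called was 4 (Krt15, Krt6a, Krt17 and Dsc2). The number of all genes called with 1 array left out is given below only as a range. The count of 4 thus stands without its own background.

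Squamous genes outside the 34 largely had the same array order. Of 47 further squamous differentiation genes, 35 had the shared order (15.4% of all genes) and 10 had both gaps of at least 1 (0.241%). Among the 10 were Spink5, a protease inhibitor, Lor, loricrin, Rptn, repetin, and Dmkn, dermokine. Lor had log2 values of 8.98, 11.09 and 8.85 in the controls and 10.82, 10.95 and 8.38 under dexamethasone, and Spink5 had 7.77, 10.24 and 7.97 and 9.76, 9.89 and 7.45. The arrays split as they did for Krt1, and the list mean was 7.57, 8.22 and 7.59 in the controls and 8.11, 8.11 and 7.47 under dexamethasone. In this list 3 genes had an unadjusted limma p under 0.05 (13.1% of all genes), 1 higher and 2 lower. After adjustment 0 rose and 1 fell, the water and glycerol channel Aqp3, with a change of -0.69 (SE 0.13, adjusted p = 0.0454). That call was lost without any array other than control array 1 (adjusted p up to 0.201). Of 16 squamous transcription factors and 8 genes of the hemidesmosome and its laminin, 0 passed limma's test. At an unadjusted limma p under 0.05 (13.1% of all genes) were 1 factor, higher, and 4 hemidesmosome genes, all lower. The groups did not overlap in 5 of the 8 hemidesmosome genes (18.3% of all genes), all lower. Barx2, a homeobox factor, had the smallest p of the factors, at 0.33 (SE 0.13, adjusted p = 0.336), and the integrin Itga6 that of the hemidesmosome, at -0.61 (SE 0.13, adjusted p = 0.0709), which passed with the replicate number as a block (0.0476). Of the 5 simple epithelial keratins 0 passed, and 4 had an unadjusted p under 0.05, 1 higher and 3 lower. Their array mean was 11.01 to 11.22.

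Corpus gland markers did not have the squamous array order. The proton pump gene Atp4a stayed within 13.78 to 13.86 in the controls and 13.82 to 13.89 under dexamethasone, and the pepsinogen gene Pgc within 14.24 to 14.28 and 14.22 to 14.32. The mean over 17 gland genes was 11.77, 11.66 and 11.78 in the controls and 11.64, 11.60 and 11.75 under dexamethasone, with 0 of 17 in the shared order. The mean ran the other way, with control array 2 the lowest control and dexamethasone array 3 the highest treated array, and this mirrored order held in 7 of 17 genes (Kcne2, Gkn2, Hdc, Chga, Cckbr, Pga5 and Bhlha15), against 19% of all genes. Pga5, a pepsinogen gene chosen after its values were seen, had 10.63, 9.56 and 9.90 against 9.10, 8.97 and 9.63. Muc6, a neck cell mucin chosen likewise, had 12.19, 12.45 and 12.54 against 11.16, 11.06 and 12.52, mirrored in the treated arrays but not in the controls. In this list 1 gene rose, Chga, chromogranin A of endocrine cells, with a change of 0.82 (SE 0.071, adjusted p = 0.0024). Over 10 antrum and duodenum genes the array mean lay within 7.32 and 7.47, and 0 passed. An unadjusted limma p under 0.05 was found in 1 of them, against 13.1% of all genes.

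Muscle markers moved with some of the same arrays. The mean over 13 striated muscle genes was 7.46, 7.63 and 7.45 in the controls and 8.31, 8.76 and 7.42 under dexamethasone. Dexamethasone arrays 1 and 2 were thus high, and control array 2 lay near the low arrays. Of the 13, 0 passed and 6 had an unadjusted limma p under 0.05 (13.1% of all genes), all higher. Acta1, skeletal actin, had 8.52, 8.59 and 8.19 against 10.55, 11.35 and 8.49. The mean over 10 smooth muscle genes was 11.01, 11.17 and 10.90 against 11.70, 11.67 and 11.27, with all treated arrays above all controls. Of them 2 rose, Actg2, an actin of enteric smooth muscle, by 0.81 (SE 0.10, adjusted p = 0.0114), and Cnn1, calponin, by 0.73 (SE 0.13, adjusted p = 0.0397). Of the 10, 9 had an unadjusted limma p under 0.05 (13.1% of all genes) and 6 had no overlap (18.3%), all of them higher. Actg2 lost the call without control array 3, dexamethasone array 1 or dexamethasone array 2 (adjusted p up to 0.0699), and Cnn1 without any array other than dexamethasone array 3 (up to 0.203). The shared squamous order held in 8 of 10 smooth and 6 of 13 striated muscle genes (15.4% of all genes). In 0 of either were both gaps at least 1 (0.241% of all genes). The part of muscle in the squamous values was not tested. Of 13 leukocyte genes 1 was lower, Ptprc, the pan-leukocyte CD45, at -0.63 (SE 0.096, adjusted p = 0.0228), a call lost without control array 2, control array 3, dexamethasone array 1 or dexamethasone array 2 (up to 0.114). Of 7 pancreatic acinar genes 1 was lower, Cel, a lipase, at -0.97 (SE 0.079, adjusted p = 0.00191). The array means of these lists were 7.17 to 7.32 and 8.36 to 8.51.

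**Figure D3:**
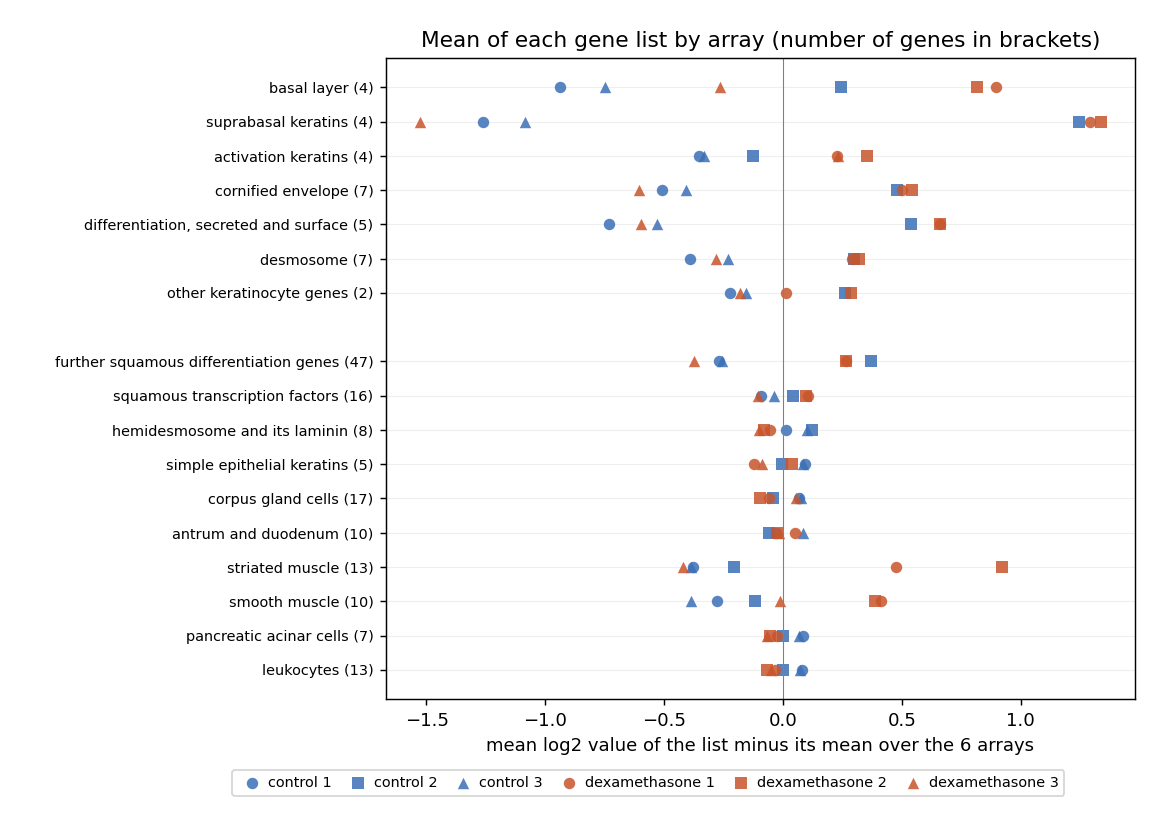
Mean log2 value of each gene list in each array minus the mean of that list over the 6 arrays (horizontal axis), with the 7 roles of the squamous members above and 10 other lists below, and the number of genes in brackets. The suprabasal keratins split by more than 2 log2 units, and the 17 corpus gland genes stay within 11.60 and 11.78.

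Outside all lists, as matched by symbol, the genes most like the members in array order were named, leaving out predicted genes. The ranking was by the lesser of the 2 gaps between the arrays of a group, over 6 arrays. They were Serpinb12, Asprv1, Lce1c, Fads2b, Kprp, Fetub, Them5, Lce1a1, Il1f6, Aox4, Dsc1 and Il1f9, with a lesser gap of 1.56 to 2.32. Il1f6 is the older symbol of Il36a, a gene of the further squamous list that was not matched under that name. Asprv1, a skin protease that processes filaggrin, had log2 values of 8.91, 10.96 and 8.60 in the controls and 10.71, 10.97 and 8.29 under dexamethasone, and Dsc1, the desmocollin of upper epidermal layers, had 6.93, 8.92 and 7.19 and 8.51, 8.78 and 6.93. Lce1c and Lce1a1 are late cornified envelope genes. None of the 12 passed the limma test, with adjusted p-values of 0.728 to 0.970. Ranking by gaps within a group selects genes of wide residual spread, so a call was unlikely beforehand. Nothing about the treatment is read from these p-values.

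The distance between basal and suprabasal keratins differed from array to array. The log2 value of Krt5 minus that of Krt1 was -1.78, -2.24 and -1.71 in the controls and -0.82, -0.91 and 0.54 under dexamethasone. The difference was larger in all 3 treated arrays than in all 3 controls. For Krt14 minus Krt10 it was -0.88, -2.05 and -0.43 and -1.03, -1.18 and 0.56, where the groups overlapped and dexamethasone array 3 was alone above 0. The distance between probe sets itself has no meaning, only its shift between arrays, and the pairs were chosen after their values were seen. The mean of the basal genes minus that of the suprabasal keratins was -1.12, -2.44 and -1.11 in the controls and -1.84, -1.96 and -0.18 under dexamethasone, which overlapped. Krt14 minus Krt13 was -1.15, -2.25 and -1.09 in the controls and -1.83, -2.20 and -0.44 under dexamethasone, with a mean of -1.49 in both groups. Krt5 minus Krt13 was -1.17, -1.40 and -1.21 and -0.92, -0.90 and 0.06, without overlap.

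**Figure D4:**
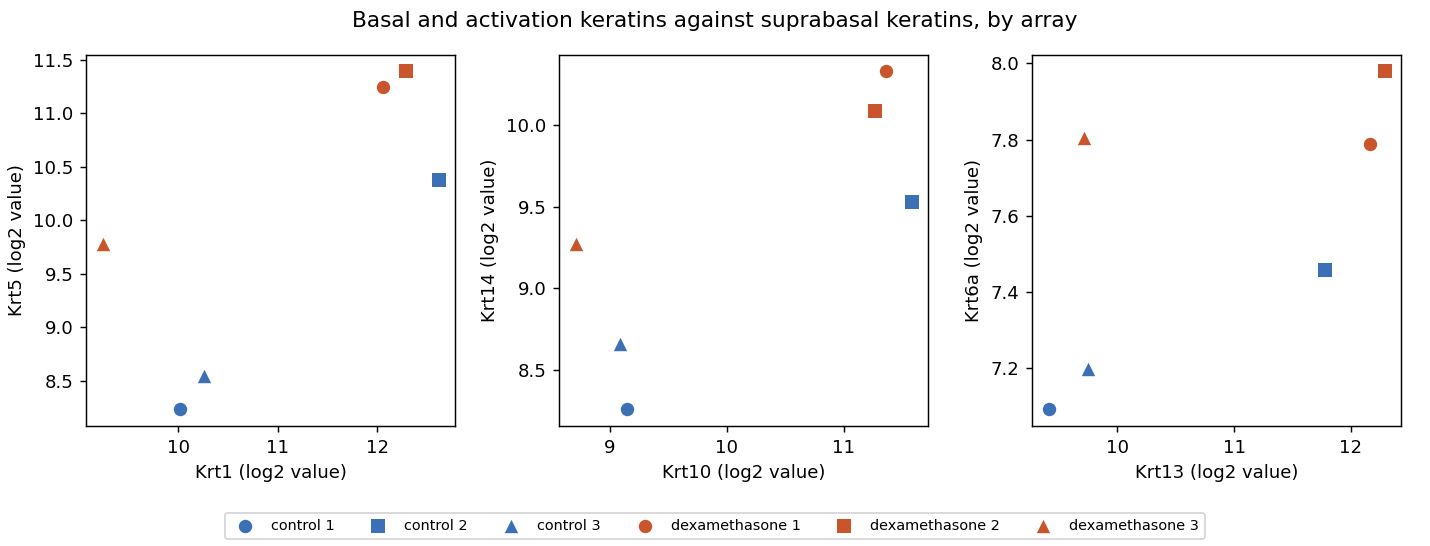
Log2 value of a basal or activation keratin (vertical axis) against that of a suprabasal keratin (horizontal axis) in the 6 arrays, for Krt5 and Krt1, Krt14 and Krt10, and Krt6a and Krt13, blue for control and orange for dexamethasone. In the first panel dexamethasone array 3 has the lowest Krt1 value, 9.24, with a Krt5 value of 9.77 above those of control arrays 1 and 3.

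When each array's mean over the 47 further squamous genes, none of them a member, was added to the limma fit as a covariate, 12 of 33 members passed (3.12% of all genes did), 11 higher and 1 lower. This fit was chosen after seeing the data, the covariate was taken from the same 6 arrays, and each pair in brackets is the group's coefficient on the log2 scale and its adjusted p. Higher were the basal genes Krt5 (coefficient 1.46, adjusted p = 0.00115), Krt14 (0.91, 0.00709) and Trp63 (0.40, 0.0151). The activation keratins Krt6a (0.58, 0.0126), Krt16 (0.61, 0.0194) and Krt17 (0.48, 0.00864) were higher too, as were the desmosome genes Dsg3 (0.95, 0.000783) and Pkp1 (0.45, 0.0143). The others were Krt13 (0.69, 0.0126), Cnfn (0.40, 0.0323) and Krtdap (0.58, 0.00357). Dsc2 was lower (-0.52, 0.00848), with the coefficient it had without the covariate. Krt1 (-0.20, 0.453) and Krt10 (0.10, 0.579) did not pass.

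With the mean over the 33 members themselves as covariate, 9 passed (2.48% of all genes), 6 higher and 3 lower, though here the member coefficients average 0 by construction and so show only unequal change. The 6 higher were Krt5 (0.96, adjusted p = 0.0109), Krt14, Krt6a, Krt16, Krt17 and Dsg3, which also passed with the other covariate, as did Dsc2. Both covariates had the same high and low arrays, so the fits are not independent and neither backs the other. Krt1 (-0.98, 0.00243) and Krt10 (-0.62, 0.0416) were lower with this covariate only. With the further list as covariate and 1 array left out, the count of members past the threshold ran from 4 to 14, and Krt5, Krtdap and Dsg3 passed in all 6 such fits, with coefficients of 1.27 to 1.65 for Krt5 and 0.88 to 1.02 for Dsg3. Cnfn passed in 1 of the 6, Trp63 and Pkp1 in 2 and Krt13 in 3. Krt14 lost the call without dexamethasone array 1 or 3, Krt6a without dexamethasone array 2 or 3, Krt16 and Krt17 without control array 2 or any treated array, and Dsc2 without control array 2, dexamethasone array 1 or dexamethasone array 2. With the member covariate the count ran from 1, without dexamethasone array 3, to 12, and Krt1 was the 1 gene that passed in all 6. That covariate is the members' own mean, so this sets Krt1 beside the other members and is no fall under treatment. The share of all genes called was not taken in the fits with a covariate and 1 array left out.

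**Figure D5:**
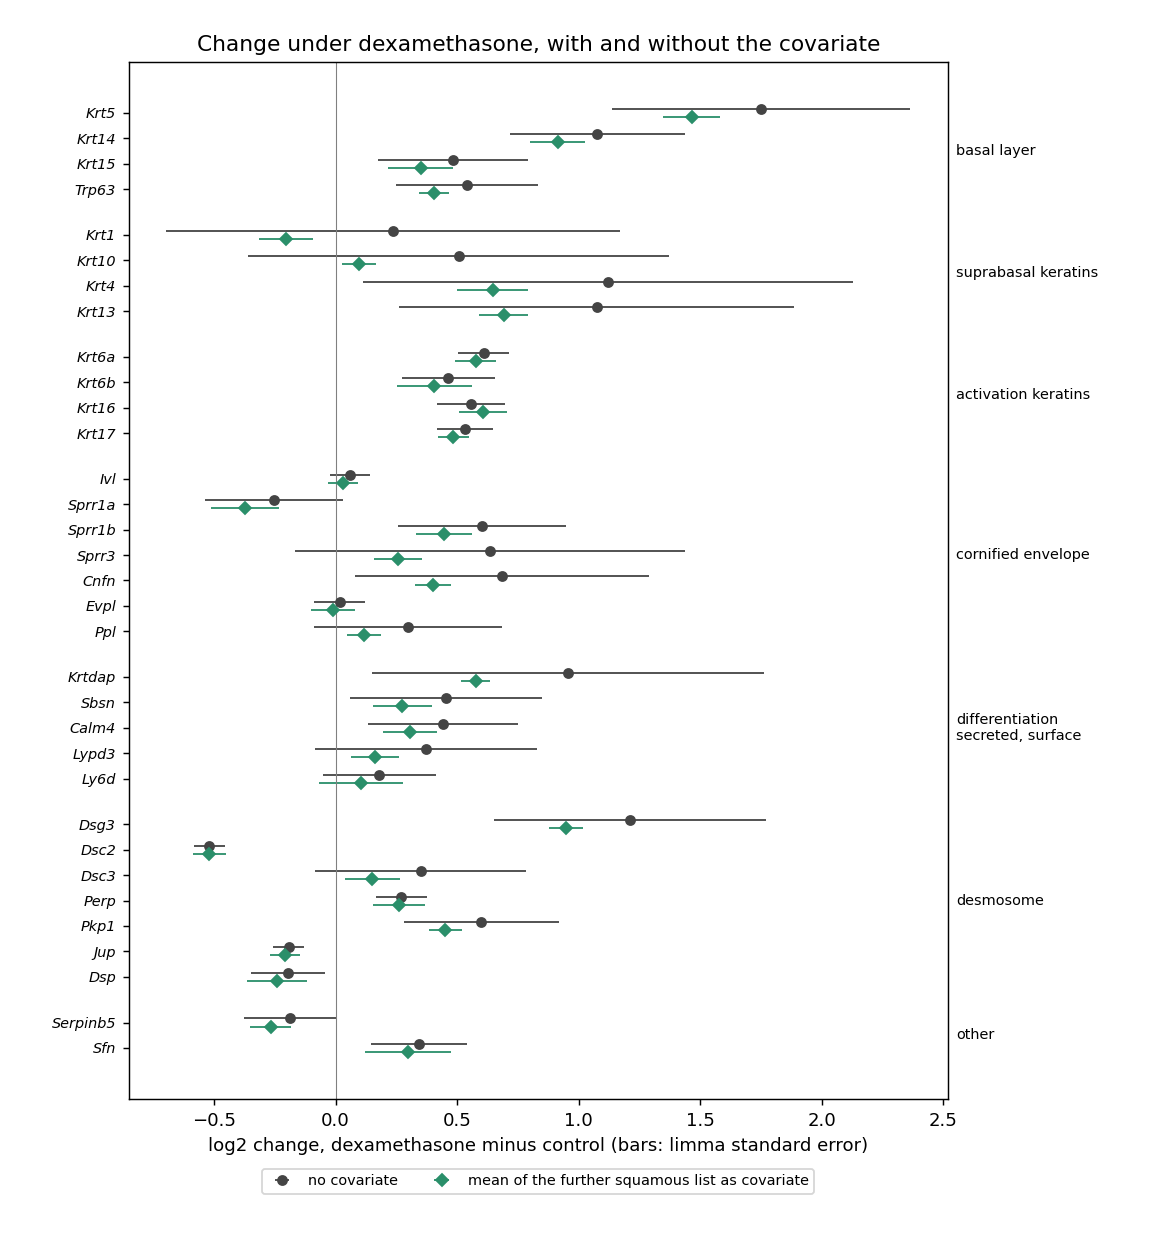
Log2 change of each of the 33 squamous genes, dexamethasone minus control (horizontal axis), with limma's standard error as bars, without a covariate (dark circles) and with the mean of the 47 further squamous genes as covariate (green diamonds). The bars of Krt1 and Krt4 shrink most, and Dsc2 stays at -0.52 in both fits.

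Control array 2 and dexamethasone arrays 1 and 2 were also left out together, a choice made after seeing the data. These were the arrays with the high member mean, so the choice rests on the members' own values. It left 2 controls and 1 treated array, and no test is read from 1 treated array. The values describe dexamethasone array 3 against control arrays 1 and 3, and they cannot give a change by treatment. The median log2 difference of the members was 0.043, with 17 positive and 16 negative. It was 1.38 for Krt5, 0.81 for Krt14, 0.66 for Krt6a and 0.73 for Krt16, -0.90 for Krt1 and -0.84 for Sprr1a.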

How the data were processed

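The deposited table holds 1 log2 value per probe set and array for 6 single-colour Affymetrix arrays, made by the authors before deposit from biotinylated cRNA. The submitters' processing notes name R 2.9, limma and RMA, with no roles. Which chip definition or filter was used is not given in the sources used here. Of 20985 probe sets, 19921 had 1 gene symbol in the platform annotation, 0 had several and 1064 were not named. For 2 symbols with 2 probe sets the one with the higher mean was taken, which left 19919 genes, and 19807 gene IDs were found in the RefSeq table of GRCm38.p6. With 3 arrays per group, precision is limited by their number.

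The 19919 genes were fitted by group in limma 3.58.1 under R 4.3.3, using lmFit and eBayes with its default prior. Two-sided p-values were adjusted over all genes by Benjamini and Hochberg's method, and 0.05 was the threshold. Every adjusted p comes from limma, and SE is its moderated standard error. Since 3 against 3 arrays give an exact permutation p of at least 0.1, no such test is given. The 34 members, their roles and the other lists were chosen with earlier results of these data known. All members are named, as are genes of each list with the smallest p or the largest lesser gap, and the 12 genes of largest lesser gap outside the lists. No batch is labelled. Alternatives were the replicate number as a block, other scalings, a filter on dim genes, other priors, array weights, all probe sets, covariates and left-out arrays. The scripts were tested on simulated data. A planned comparison of paralog protein sequences was not run.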

Additional observations from a re-analysis of the deposited data

How the results depend on the processing

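The median log2 change of the members was 0.46, and 0.27 to 0.82 under the alternatives other than the member covariate (-0.034) and the fit without control array 2 and dexamethasone arrays 1 and 2, where it was 0.043. The array order was that of 25 or 26 members under the scalings and the filter on dim genes, and of 11 with both gaps of at least 1. Of 525 member values under the 16 alternatives, 453 kept their direction and their side of the threshold. As 31 of 33 members had no call in the main fit, this mostly counts members that stayed uncalled. It also takes in the member covariate and the fit with 1 treated array, so it does not measure stability. With the replicate number as a block, 2 members passed, as without it, and 220 genes in all against 367. The labels do not say what a replicate number marks, and the deviations of same-numbered arrays from their group means correlated at -0.28, 0.35 and 0.23 over genes, so the numbers were not taken as pairs. Not every array correlated best with the one of its own number. Members past the threshold numbered 1 (Dsc2) without the dimmest 40% of genes, which takes Krt6a out of the test, and 8 with array weights, where 1776 genes passed. They numbered 9 with the member covariate, 12 with the further squamous list as covariate (622 genes in all) and 0 with control array 2 and dexamethasone arrays 1 and 2 left out together (5 genes in all). The last of these fits held 1 treated array and its left-out arrays were chosen from the members' own values. No test is therefore read from its counts of 0 and 5, and they are not comparable with the others. With 1 array left out, the members past the threshold numbered 0 to 4 and all genes 88 to 543. Outside the members, the calls of Chga and Cel held in all 6 of these fits, and under the block Itga6 (adjusted p = 0.0476) and Tagln (0.0313) gained a call. Aqp3 lost its call under the block (0.112) and under quantile normalization (0.0827), as did Cnn1 under the latter (0.0521). The cause of these shifts was not tested.

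Some directions reversed. With 1 array left out, the log2 change of Krt1 was -0.31 to 1.22, of Sprr1a -0.49 to 0.10, of Evpl -0.078 to 0.13, of Ly6d -0.092 to 0.43 and of Serpinb5 -0.31 to 0.034. Evpl was at -0.00068 with median-centred arrays, and array weights gave 0.048 for Sprr1a and 0.0091 for Serpinb5. The member covariate, which centres the members on 0 by construction, gave a median of -0.034 and values of -0.98 for Krt1, -0.62 for Krt10, -0.18 for Krt4, -0.018 for Ivl, -0.40 for Sprr3, -0.097 for Cnfn, -0.065 for Evpl, -0.20 for Ppl, -0.087 for Krtdap, -0.037 for Sbsn, -0.21 for Lypd3, -0.034 for Ly6d and -0.20 for Dsc3. The further list as covariate gave -0.20 for Krt1 and -0.012 for Evpl. Without the 3 arrays together the values were -0.12 for Krt15, -0.90 for Krt1, -0.41 for Krt10, -0.24 for Krt4, -0.050 for Ivl, -0.13 for Sprr3, -0.20 for Evpl, -0.017 for Ppl, -0.20 for Sbsn, -0.20 for Lypd3 and -0.24 for Dsc3.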
